A study of Mus musculus with 2 samples.

Results

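N6-methyladenosine (m6A) was examined in the 8 mouse genes of the neuregulin and ErbB family, which are the ligand genes Nrg1, Nrg2, Nrg3 and Nrg4 and the receptor genes Egfr, Erbb2, Erbb3 and Erbb4. A site was counted for a member when it lay inside the GENCODE M21 interval of that gene on the GRCm38 genome and on its strand. Under this rule 408 of the 79355 sites of the cerebellum library and 973 of the 188295 sites of the cerebrum library belonged to the family. Their union held 1302 sites, and 79 were found in both libraries. The sites themselves had been selected on measured values, because the lists keep adenosines methylated in over 0.1 of reads and covered by more than 8 reads. The number of sites in each member is therefore given as a description.

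The sites came from GLORI, in which glyoxal and nitrite deaminate unmethylated adenosine so that it is read as G, while m6A is still read as A. The assay was run on poly(A)+ RNA from 1 cerebellum and 1 cerebrum sample. Both samples were GLORI-treated and came from the F1r cross, a C57BL/6J (C57) mother with a PWK/PhJ (PWK) father, from female offspring at P0, the day of birth. The question of the study was which m6A differs between the parental alleles, and the GLORI lists served to place sites at single bases. The lists give a chromosome, a position and a strand but no methylation rate, no read count and no allele. The depth behind a site is thus unknown, and a gene or adenosine without a site may be unmethylated, not expressed or too thinly covered. With 1 library per tissue there was no replicate check, so the tissues are set side by side without a test. Exact binomial 95% intervals are given for shares and cover counting error over sites only.

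Neuregulins are growth factors with an EGF-like domain, most of them made as membrane-anchored precursors that proteases release. They bind the receptor tyrosine kinases ErbB3 and ErbB4, which pair with ErbB2, a receptor with no known ligand of its own. EGFR, the founding member of the receptor family, binds EGF and related ligands instead. In the developing nervous system this signalling is known for guiding interneuron migration, for radial glia and for the myelinating glia of peripheral nerve.

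The labelled tissues were checked with marker genes. Among 10 forebrain genes 3 carried a site in the cerebellum library and all 10 in the cerebrum library, where Tbr1 had 25 sites against 0. Among 10 hindbrain genes 7 carried a site in the cerebellum and 3 in the cerebrum, and En1 and En2 had 6 and 9 cerebellum sites against 0 cerebrum sites. Cbln1 and Gbx2 of the same list did not separate the tissues, with 16 and 3 sites in the cerebellum and 19 and 3 in the cerebrum. The 4 Schwann cell markers had 0 sites in either library. All 8 oligodendrocyte lineage genes had a site in both libraries. A site was listed for 5 and 6 of 6 genes of radial glia and astrocytes, 2 and 3 of 5 endothelial genes, 2 and 4 of 5 microglial genes and 1 and 2 of 4 choroid plexus genes, with the cerebellum value given before that of the cerebrum. Of the choroid plexus list only Otx2 had sites in the cerebellum, 13 against 3 in the cerebrum, while Ttr, Folr1 and Kl had 0 in the cerebellum.

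At least 1 site was listed for 5 of the 8 members in the cerebellum and for 6 in the cerebrum, where 41.2% and 57.4% of the 21951 protein-coding genes of the annotation had one. DRACH is the consensus 5-mer of m6A, with the methylated A at its centre followed by C, any base but C at the start, a purine next and any base but G at the end. U is written as T in the sequences given here. On coding transcripts a DRACH site was present in the same 4 members in both libraries, Nrg1, Nrg3, Egfr and Erbb4, against 33.2% of coding genes in the cerebellum and 42.7% in the cerebrum. For Nrg3 the cerebellum list held 211 sites and the cerebrum list 431. Nrg1 held 114 and 250, and Erbb4 61 and 265. These 3 genes together made up 94.6% of the family sites of the cerebellum list and 97.2% of those of the cerebrum list. Nrg3 ranked as number 8 of 9047 genes with a site in the cerebellum and number 12 of 12605 in the cerebrum. Egfr followed with 16 and 19 sites and Nrg2 with 6 and 7. Erbb2 had 0 cerebellum sites and 1 cerebrum site, and Nrg4 and Erbb3 had 0 in both.

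**Figure D1:**
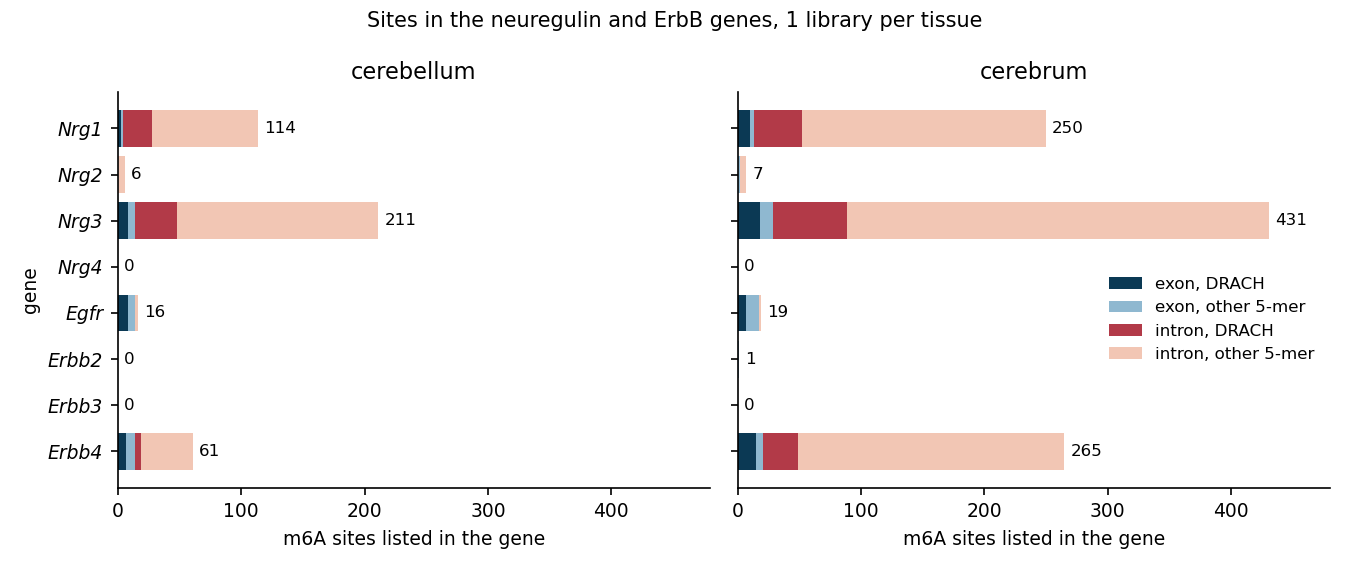
Number of m6A sites (x axis) listed for each of the 8 genes (y axis) in the cerebellum library (left) and the cerebrum library (right), split by place and 5-mer, with the total beside each bar. Introns outside DRACH make up most of the bars of Nrg1, Nrg3 and Erbb4, while the sites of Egfr lie mostly in exons.

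The cerebrum library listed 2.38-fold as many family sites as the cerebellum library, and 2.37-fold as many sites in all. Over all places the ratio was 2.04 for Nrg3, 2.19 for Nrg1, 1.19 for Egfr and 4.34 for Erbb4. Most family sites were intronic, and introns alone gave 2.46 in the family against 3.43 for all intron sites. Intron DRACH sites gave 2.02 in the family against 2.94 for all. On exons the lists held 26 and 50 DRACH sites of the family, a ratio of 1.92, where all exon DRACH sites gave 1.73. Measured per kb of exon sequence of any isoform, Nrg3 had 1.17 exon DRACH sites per kb for the cerebellum and 2.64 for the cerebrum, the highest values of the family. Erbb4 had 0.567 and 1.21, Egfr 0.706 and 0.618, and Nrg1 0.290 and 0.966. Egfr was the only member with more exon DRACH sites in the cerebellum, 8 against 7.

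Nrg3, a ligand of ErbB4 expressed mainly in neurons, lies on the minus strand of chromosome 14 (GRCm38, 38368952 to 39473088). Its main isoform Nrg3-201 has 10 exons and 4011 nt, and its longest exons are exon 1 with 1117 nt and exon 10 with 2089 nt. Every DRACH site on this isoform was in one of these 2 exons. In exon 1, which encodes the N-terminal part of the protein, the cerebellum list held 3 and the cerebrum list 5 of its 12 DRACH adenosines. In exon 10 it was 4 and 11 of 46, and in the 8 exons between them 0 of 19 in either library. The 3 sites of exon 1 found in both libraries are shown with the 4 shared DRACH sites of exon 10, since these 7 carry the exon signal of the gene in both tissues. Sequences are from GRCm38, written 5′ to 3′ on the transcript strand, with the 5-mer in capitals and the methylated A at its centre.
Nrg3 exon 1, chr14:39472459-39472479, minus strand: atgggccaGGACCccttcttc
Nrg3 exon 1, chr14:39472234-39472254, minus strand: acagcacgGAACActgctgcc
Nrg3 exon 1, chr14:39472064-39472084, minus strand: tccctcctGGACCctgtcacc
Nrg3 exon 10, chr14:38370963-38370983, minus strand: ttcaagagAGACAaaccccta
Nrg3 exon 10, chr14:38370929-38370949, minus strand: gatcaaaaGGACCtggtgggt
Nrg3 exon 10, chr14:38370806-38370826, minus strand: tggtgcaaAAACTcctactcc
Nrg3 stop codon, chr14:38370523-38370543, minus strand: taaccaagTGACTggaaatgt

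The last of these sites is the final base of the Nrg3 stop codon TGA, at position 38370533. Positions below are given in nt of spliced transcript from that base, with negative values in the coding sequence (CDS). Among the main isoforms of 20714 coding genes 3000 have a stop codon whose last A lies in a DRACH 5-mer. That base was listed in 91 genes in the cerebellum, 184 in the cerebrum and 70 in both, or 2.33% of the 3000. The expression of these genes is unknown. DRACH adenosines anywhere on the main isoforms of the family were also seldom listed, 2.44% in the cerebellum and 4.27% in the cerebrum. The count therefore does not show that the stop codon base is called more rarely than other DRACH adenosines. The stop codons of Egfr and Erbb3 also end in a DRACH 5-mer, TGACA and TGACC, and were listed in neither library. Around the Nrg3 stop codon the cerebrum library held 4 further DRACH sites at -167, -138, -115 and -19 nt, none of which the cerebellum library listed. In the 3′ UTR of 1581 nt the cerebrum listed DRACH sites at 329, 633 and 1099 nt, and the cerebellum listed 0. All 7 DRACH sites of the cerebellum on the main isoform were thus in the CDS, and all were also in the cerebrum list. This holds for the GENCODE model only. On RefSeq exons the cerebellum list held DRACH sites at 819, 1282 and 2296 nt beyond the GENCODE end of the gene. Those at 819 and 1282 nt were also in the cerebrum list.

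Of the Nrg3 exon sites outside DRACH, 3 were found in both libraries. These were GGACG at -1694 nt in exon 1, which misses the motif by its last base, GGATT at -317 nt in exon 10, and TGATG on the non-coding isoform Nrg3-204. That isoform retains intron sequence in an exon of 2912 nt and held 9 sites in the 2 libraries, among them the shared DRACH site GGACA at position 39009314.

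Nrg1, the neuregulin known for its alternative N termini, lies on the minus strand of chromosome 8 (31814551 to 32884029) and has 18 annotated isoforms. On its exons the cerebellum list had 3 DRACH sites and the cerebrum list 10, and all 3 cerebellum sites were also in the cerebrum list. They are shown because they are the only Nrg1 exon sites of the cerebellum library with the motif.
Nrg1 exon 11, chr8:31821250-31821270, minus strand: tcctacagAGACTctcctcat
Nrg1 3′ UTR, chr8:31817985-31818005, minus strand: cacctgtaAAACTttatttta
Nrg1 longer 3′ UTR, chr8:31816650-31816670, minus strand: ccactcatGGACTgatctctc

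The AGACT site lay in the coding exon 11 of Nrg1-202 at -673 nt, 18 nt from an exon junction, and was the only DRACH site of the family that both libraries listed in an internal exon. The AAACT site lay in the 3′ UTR at 33 nt. The GGACT site lay at 1368 nt, beyond the 885 nt of 3′ UTR of the main isoform, on Nrg1-203, whose last exon runs to 4132 nt. Sites found only in the cerebrum included GGACC in the 5′ UTR of Nrg1-218, TGACC in exon 1 of Nrg1-201, which starts inside the gene, and GAACC at -275 nt. On the 3′ UTR the cerebrum alone listed TGACT at 698 nt and, on Nrg1-203, TGACA at 906, GGACA at 1484 and AAACT at 3405 nt. The initial exons of Nrg1-218 and Nrg1-201 had 0 sites in the cerebellum.

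Nrg2 held 2 exon sites, both in the cerebrum and both outside DRACH. One was ACAGC in coding exon 8 and the other AGACG in the 3′ UTR at 184 nt. Its other sites were in introns of the GENCODE model, 6 of the cerebellum and 5 of the cerebrum list, and 2 of them were found in both. Of the 6 cerebellum sites 2 lay on RefSeq exons of Nrg2. None of the 48 DRACH adenosines of its main isoform was listed. Taking 3 counts as the limit that a count of 0 allows gives a share of up to 6.25%, and the exact 95% interval reaches 7.40%. Nrg4, a ligand of ErbB4 best known from adipose tissue, had 0 of 40 listed, which allows up to 7.5% (exact interval up to 8.81%). These limits concern the listed share and cover counting error only. With expression and depth unknown they do not bound methylation.

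Egfr lies on the plus strand of chromosome 11 (16752203 to 16918158). Every one of its 12 exon DRACH sites lay in the last exon, exon 28, which spans 6665 of the 10208 nt of the main isoform. The sites found in both libraries were GGACT at -109 nt, GGACC at 55 nt and GAACT at 342 nt, and they are shown because they bracket the stop codon.
Egfr CDS, chr11:16911736-16911756, plus strand: taccagcaGGACTtcttcccc
Egfr 3′ UTR, chr11:16911900-16911920, plus strand: gaatcccaGGACCaactatgg
Egfr 3′ UTR, chr11:16912187-16912207, plus strand: tatttaggGAACTttgggatt

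The Egfr sites found in a single library are given by place. Of the 4 DRACH sites of Egfr listed only in the cerebrum, 3 lay at 37, 118 and 223 nt and the other at 3824 nt. The 5 listed only in the cerebellum lay at 259, 818, 1033, 2929 and 5732 nt, and so reached farther into the 3′ UTR. Outside DRACH this did not hold. Such 3′ UTR sites of the main isoform lay at 1423, 4086, 4088 and 4658 nt in the cerebrum only. In the cerebellum only they lay at 539, 1032, 2319 and 4533 nt. The shared exon sites outside DRACH were GGATT at 350 nt and TCAAT at 4662 nt. At 4533 nt the cerebellum list held a position, 16916388, whose GRCm38 base is G rather than A. There were 6 such family sites in all, 3 in each library, with 4 in introns of Nrg3 and 1 in an intron of Erbb4. The lists were made on a PWK version of the genome as well as on mm10, and the PWK base at these 6 positions was not analysed here.

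Erbb2, the receptor shared by the other complexes, had 1 site, CCATC in its 3′ UTR at 933 nt, in the cerebrum and outside DRACH. None of its 108 DRACH adenosines was listed, which allows up to 2.78% (exact interval up to 3.36%). Erbb3, the receptor without strong kinase activity of its own, had 0 of 142, which allows up to 2.11% (exact interval up to 2.56%). As for Nrg2 and Nrg4, these limits do not bound methylation, since expression and depth are unknown.

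Erbb4, the neuregulin receptor of interneurons, lies on the minus strand of chromosome 1 (68032186 to 69108059). On its exons the cerebellum list had 7 DRACH sites and the cerebrum list 15, of which 6 were shared. All 6 lay in exon 27, the last, which takes up 8301 of the 12037 nt of Erbb4-202. The 4 of the long 3′ UTR are shown, as they form 2 pairs along it.
Erbb4 3′ UTR, chr1:68038882-68038902, minus strand: ctttttctGAACTccactttg
Erbb4 3′ UTR, chr1:68038831-68038851, minus strand: cagcagatTAACTaatttaaa
Erbb4 3′ UTR, chr1:68034047-68034067, minus strand: acctcctgTGACTtttgttgg
Erbb4 3′ UTR, chr1:68033964-68033984, minus strand: gactgacaGAACTctatctac

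The first pair, GAACT and TAACT, stood at 1149 and 1200 nt, and the second pair, TGACT and GAACT, at 5984 and 6067 nt. The single DRACH site found only in the cerebellum was TGACT at 6058 nt, inside the second pair. The 9 found only in the cerebrum included GGACA in the 5′ UTR, GGACA in exon 26 at -562 nt and 3 sites near the transcript end at 7675, 7760 and 7771 nt. No site of either library lay in the 3′ UTR between 1468 and 4143 nt.

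**Figure D2:**
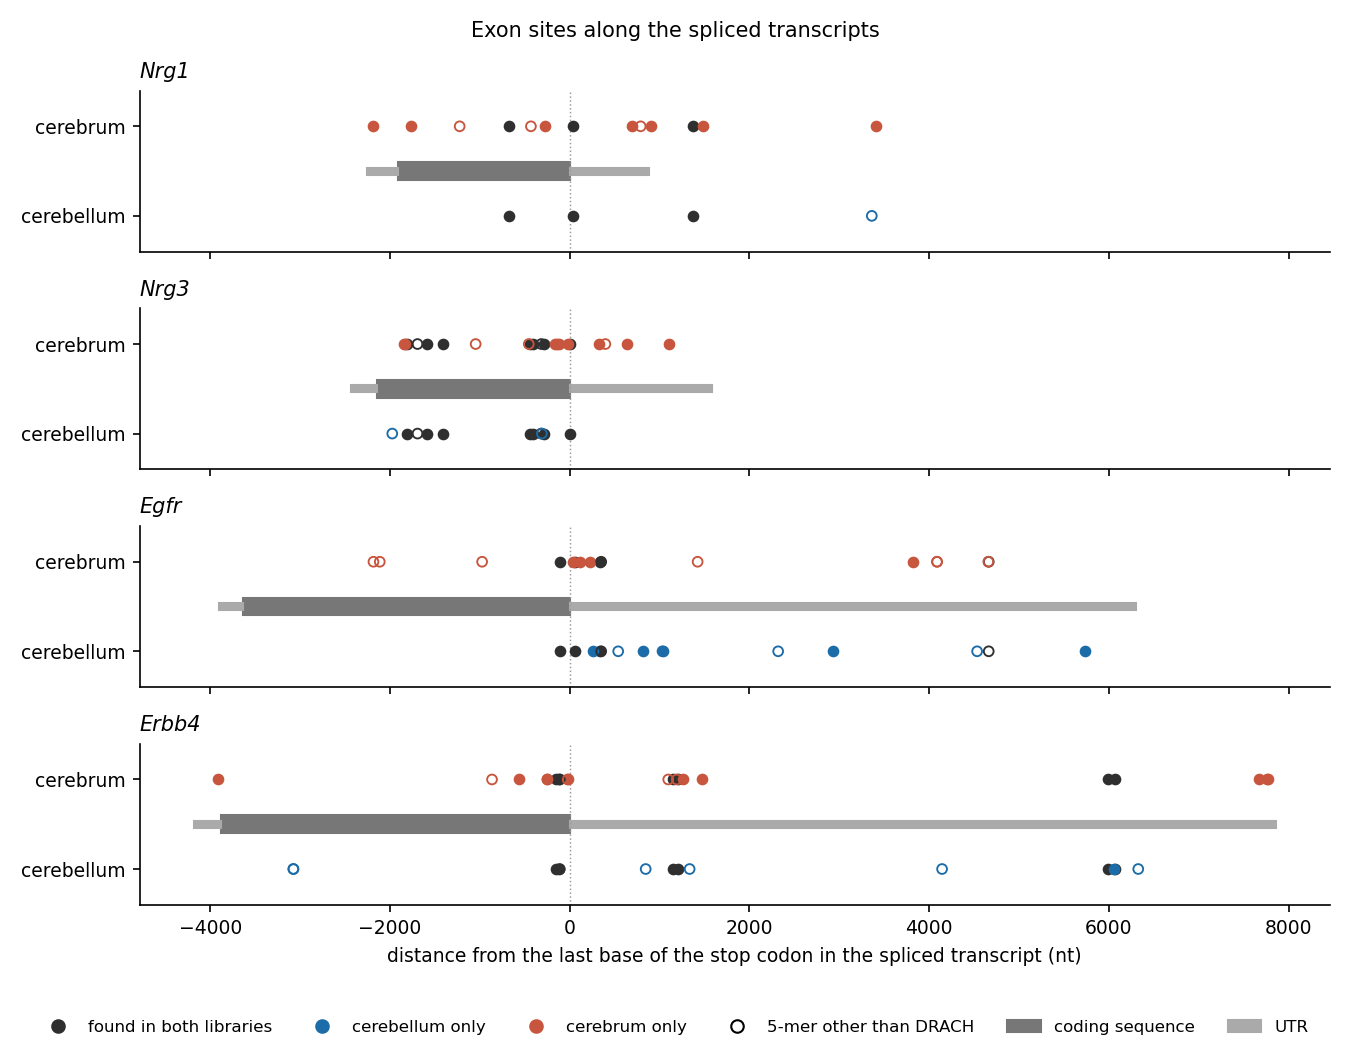
Exon sites of Nrg1, Nrg3, Egfr and Erbb4 by their distance from the last base of the stop codon of the isoform they were assigned to (x axis, nt of spliced transcript), with cerebrum sites above and cerebellum sites below a drawing of the main isoform. Filled points are DRACH sites, open points other 5-mers, and black marks sites found in both libraries. Nrg1 points past its drawn UTR lie on the longer isoform Nrg1-203, and sites on isoforms without this stop codon (Egfr-202, Nrg3-204) are not drawn.

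On coding transcripts, the CDS held 18 of the 41 family sites of the cerebellum (43.9%, 95% interval 28.5% to 60.3%) and 36 of the 71 of the cerebrum (50.7%, 38.6% to 62.8%). The 3′ UTR held 23 (56.1%, 39.7% to 71.5%) and 33 (46.5%, 34.5% to 58.7%). The 5′ UTR held 0 in the cerebellum and 2 in the cerebrum. The intervals of both regions include the shares of all sites, which were 40.9% and 43.0% for the CDS and 56.3% and 53.8% for the 3′ UTR. The CDS share rested on Nrg3, and without this gene it was 23.3% and 38.0%. Sites of Nrg3 on RefSeq exons past its GENCODE end are not in these counts. The stop codon had 7 family sites within 200 nt on either side in the cerebellum library (17.1%, 7.15% to 32.1%) and 16 in the cerebrum library (22.5%, 13.5% to 34.0%), with 20.3% and 18.9% for all sites. All 7 cerebellum sites near the stop codon were also in the cerebrum list.

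The position of the listed adenosines within the exons was set against the DRACH adenosines that the lists left out. Across the 4 members with DRACH sites, the last exons of the main isoforms held 408 DRACH adenosines, of which the cerebellum library listed 20 (4.90%, 3.02% to 7.47%) and the cerebrum library 34 (8.33%, 5.84% to 11.5%). The 69 internal exons, the longest of which has 298 nt, held 204, of which the cerebellum library listed 1 (0.490%, 0.0124% to 2.70%) and the cerebrum library 2 (0.980%, 0.119% to 3.50%). The 4 initial exons held 34, with 3 and 6 listed, and all but 1 of these were in the 1117-nt exon 1 of Nrg3. Measured as distance to an exon junction, 2 of 24 listed DRACH adenosines of the cerebellum library (8.33%) and 2 of 42 of the cerebrum library (4.76%) were within 100 nt of one. Among those not listed on the same 4 isoforms the share was 34.7% and 35.8%. Across all coding genes with a listed DRACH adenosine the cerebellum gave 7.15% of listed against 36.9% of unlisted ones and the cerebrum 8.56% against 38.9%, and the values of the members lay near these.

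Nrg3 had the largest listed share of DRACH adenosines in the family, 7 of 77 by the cerebellum list (9.09%, 3.73% to 17.8%) and 16 of 77 by the cerebrum list (20.8%, 12.4% to 31.5%). These values exceeded those of 75.3% and 89.7% of the coding genes with a listed DRACH adenosine, whose medians were 4.67% over 7221 genes and 6.76% over 9322 genes. Nrg1 stood at 3.12% and 6.25%, Egfr at 3.46% and 3.03%, and Erbb4 at 2.55% and 5.47%. The intervals of these 3 genes overlapped each other in both libraries. The cerebrum interval of Nrg3 lay above those of Egfr (1.23% to 6.14%) and Erbb4 (3.10% to 8.87%), while it overlapped that of Nrg1 (1.73% to 15.2%). In the cerebellum the interval of Nrg3 overlapped those of all 3 genes, which reached 10.8% for Nrg1, 6.71% for Egfr and 5.19% for Erbb4. These intervals take the adenosines of a gene as independent and leave out its expression and depth, which are unknown. They are therefore no test of a difference between genes.

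**Figure D3:**
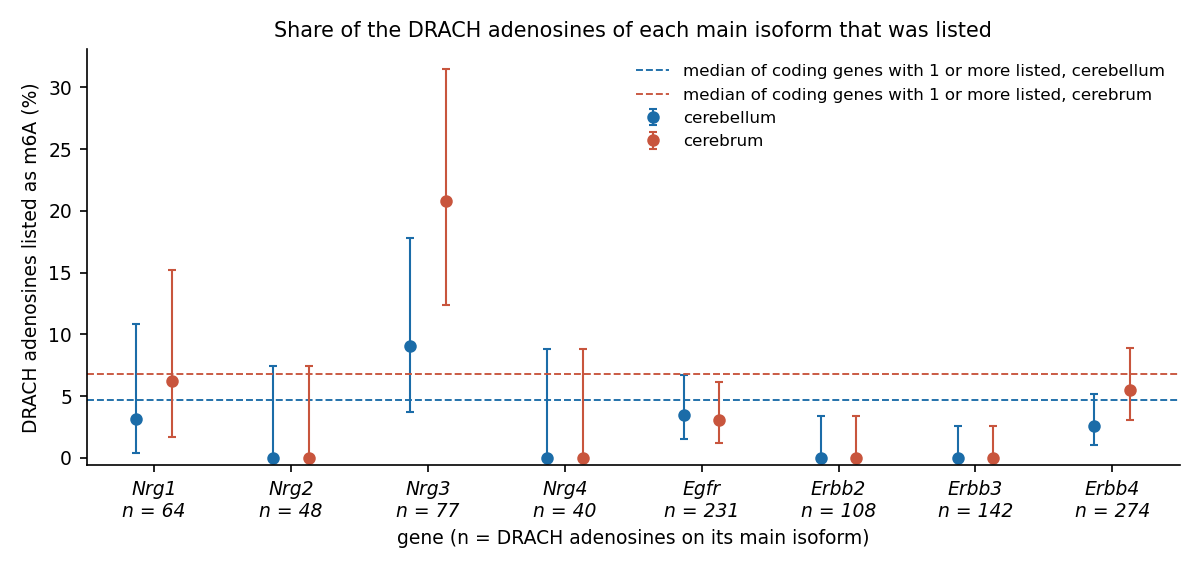
Share of the DRACH adenosines on the main isoform of each gene that was listed as m6A (y axis, percent) in the cerebellum and cerebrum library, with exact 95% binomial intervals that cover counting error over adenosines. Dashed lines give the median over the coding genes with at least 1 listed DRACH adenosine, and Nrg3 is the member above both lines, at 9.09% and 20.8%.

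Introns held most family sites, 362 of 408 for the cerebellum (88.7%, 85.2% to 91.6%) and 890 of 973 for the cerebrum (91.5%, 89.5% to 93.1%). Of all sites of the libraries 16.7% and 24.0% were intronic. Nrg1, Nrg3 and Erbb4 are among the longest genes of the genome, with intervals of 1070, 1100 and 1080 kb, and exons make up a small part of them, 0.968% in Nrg1. To take intron length into account, density was compared over the 230 coding genes longer than 500 kb, leaving out sites on exons of any other GENCODE gene. Nrg3 had 18.0 intron sites per 100 kb in the cerebellum and 36.6 in the cerebrum, number 3 and number 5 of the 230. Nrg1 had 10.4 and 22.4, number 16 and number 34. Erbb4 had 4.23 and 22.1, number 61 and number 39. The medians were 1.53 and 4.80, so that all 3 genes stood above them in both libraries. The count of Nrg3 still includes 28 cerebellum and 46 cerebrum sites on exons of Gm31606, a gene that RefSeq and not GENCODE places there.

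Among the 3 long genes, the intron sites of Erbb4 differed most between the libraries. All intron sites gave a ratio of 3.43, and Erbb4 had 47 in the cerebellum and 244 in the cerebrum, a ratio of 5.19. Its ratio was 5.22 under the count used for density, which 15 of the 122 long genes with at least 10 intron sites in the cerebellum exceeded. The median of these genes was 2.52 with quartiles of 1.95 and 3.85, and Nrg1 and Nrg3 stood at 2.15 and 2.04. The exon DRACH sites of Erbb4 gave a ratio of 2.14. Erbb4 is expressed by inhibitory neurons, whose markers were therefore counted. A site was listed for 3 of 8 inhibitory neuron genes in the cerebellum and for 7 of 8 in the cerebrum, with 11 and 48 DRACH sites on coding transcripts in sum. Lhx6, Dlx5 and Dlx6, which mark interneurons of the ventral forebrain, had 0 sites in the cerebellum and 21, 9 and 12 in the cerebrum. The general markers of these neurons differed less, with 11 and 30 sites in Gad2, 7 and 14 in Gad1 and 7 and 10 in Slc32a1, in libraries whose totals differ by 2.37-fold. Sst had 0 and 1, and Npy had 0 in both. The part of cell composition in the Erbb4 difference was not tested. In these bulk samples fewer cells of a type and less RNA per cell cannot be told apart.

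The intron sites were most numerous in the 5′ part of each gene. Intron 1 of Nrg1, which spans 915 kb in Nrg1-218, held 110 cerebellum and 233 cerebrum sites. Intron 1 of Nrg3 spans 460 kb and held 133 and 239, or 28.9 and 52.0 per 100 kb. The density then fell to 15.4 and 32.9 in intron 2, to 4.41 and 18.9 in intron 3 and to 0.979 and 16.6 in intron 4, while the shorter introns 5 (9.76 kb) and 6 (15.5 kb) had 10.2 and 0 from 1 and 0 sites and 12.9 and 19.4 from 2 and 3 sites. In Erbb4 it was 10.1 and 38.7 in intron 1 (367 kb), 3.34 and 25.6 in intron 2 and 0.609 and 17.7 in intron 3. Farther along Erbb4 the density did not fall in order, with 1.69 and 9.32 in intron 20 (118 kb) and with 12.5 and 25.1 from 1 and 2 sites in the 7.97 kb of intron 15.

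**Figure D4:**
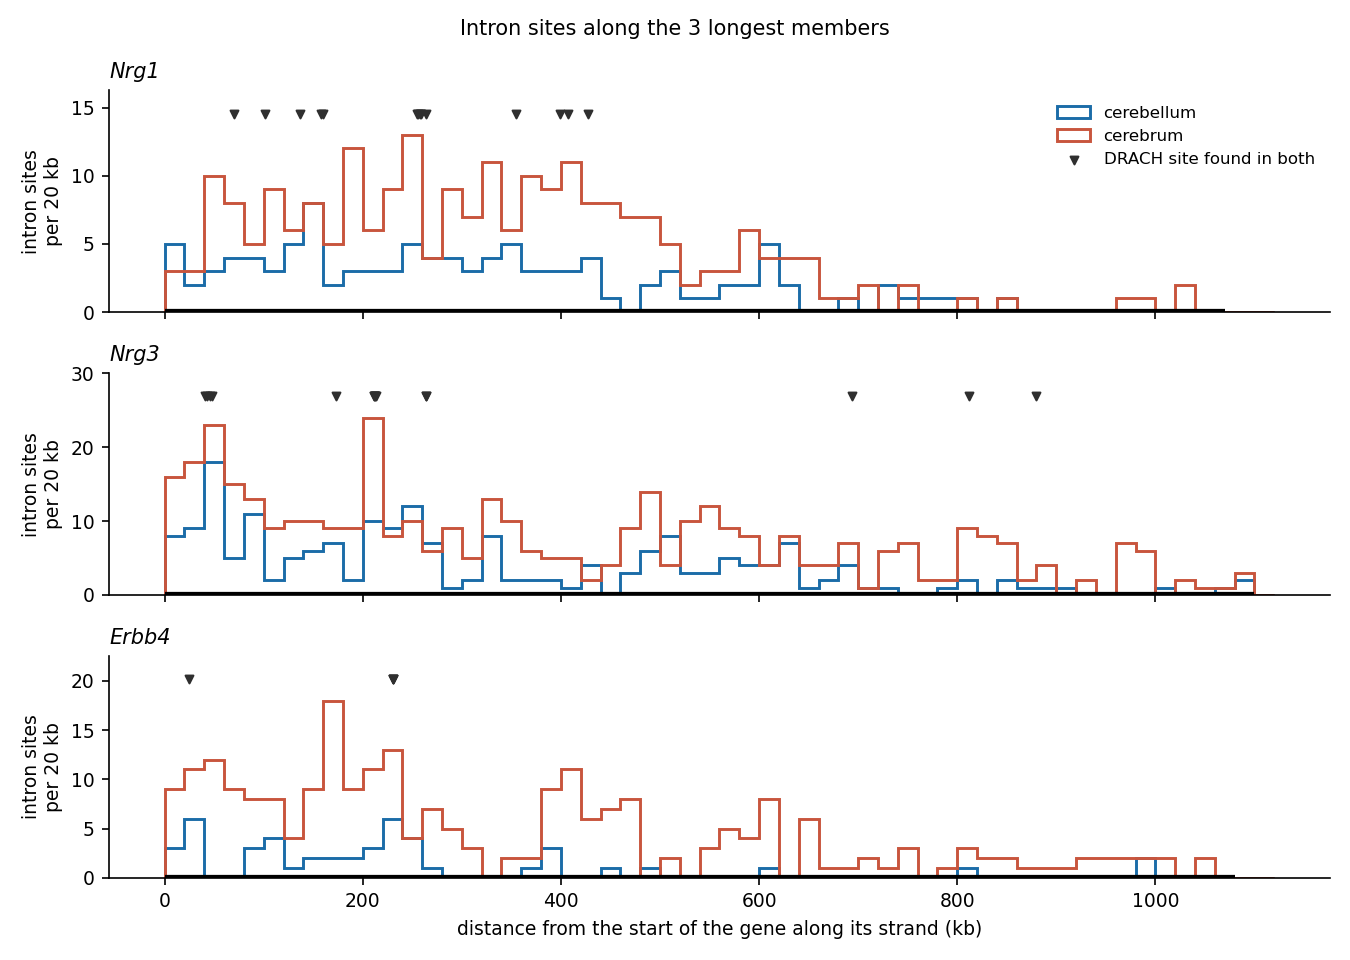
Intron sites per 20 kb (y axis) of Nrg1, Nrg3 and Erbb4 along each gene from its start on its own strand (x axis, kb), for the cerebellum and cerebrum library, with triangles at DRACH sites found in both. The black bar is the gene interval, and the highest bin of each gene and library lies in intron 1.

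A DRACH 5-mer was present at 17.4% of the intron family sites of the cerebellum (13.6% to 21.7%) and 14.3% of those of the cerebrum (12% to 16.7%), against 14.9% and 12.8% of all intron sites. On exons the share was 56.5% (41.1% to 71.1%) and 60.2% (48.9% to 70.8%), against 72.7% and 58.4% of all exon sites. The most frequent intron 5-mer of the family was GAACT with 27 of 1199 sites, followed by AAAAA with 23. On exons GAACT and GGACT led with 7 of 103 sites each.

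Within exons and within introns DRACH sites recurred between the libraries more than the others. On exons 20 of the 26 cerebellum DRACH sites recurred in the cerebrum list (76.9%, 56.4% to 91.0%), where all exon DRACH sites gave 83.1%. In introns 33 of 63 did (52.4%, 39.4% to 65.1%), where all intron DRACH sites gave 39.3%. In the other direction 33 of 127 intron DRACH sites of the cerebrum were found in the cerebellum (26.0%, 18.6% to 34.5%), and the value for all was 13.4%. All 33 lay in Nrg1, Nrg3 and Erbb4, which held 14, 15 and 4 of them. In these genes they were 14 of 24, 15 of 34 and 4 of 5 cerebellum sites. In the cerebrum they were 14 of 39, 15 of 60 and 4 of 28. Outside DRACH only 20 intron sites recurred, 6.69% of those in the cerebellum and 2.62% of those in the cerebrum, close to the 6.51% and 1.85% of all such sites. On exons outside DRACH 6 of 20 cerebellum sites recurred (30.0%, 11.9% to 54.3%) and 6 of 33 cerebrum sites (18.2%, 6.98% to 35.5%). All such exon sites gave 40.3% and 12.3%.

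**Figure D5:**
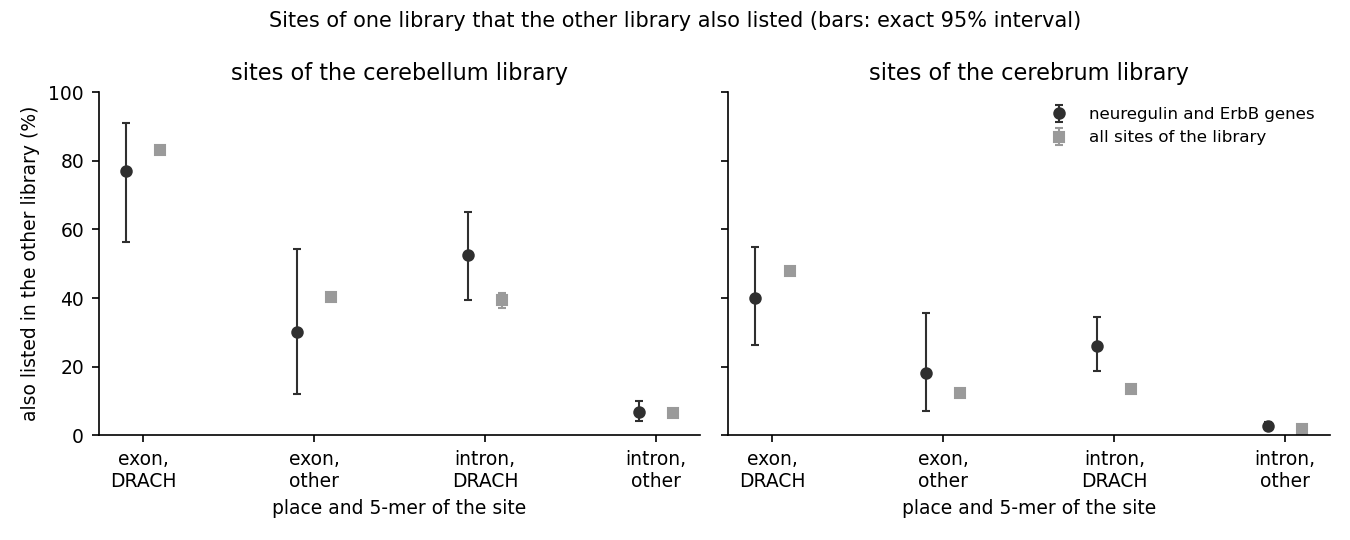
Share of the sites of one library that the other library also listed (y axis, percent), by place and 5-mer (x axis), for the 8 genes (black circles) and for all sites (grey squares), with exact 95% intervals that cover counting error. Within exons and within introns DRACH sites recur more than the others. The intron DRACH sites of the 8 genes all lie in Nrg1, Nrg3 and Erbb4. Their pooled value is above that of all sites in both panels, 52.4% against 39.3% and 26.0% against 13.4%.

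Of the 33 intron DRACH sites found in both libraries, most lay apart and a smaller part lay in groups. Chaining sites less than 2 kb apart gave 3 groups of at least 3, with 5, 4 and 3 of the 33, each in intron 1 of its gene and none on an exon of GENCODE or RefSeq. In Nrg3 a stretch of 1384 nt, 211.63 kb from the gene start, held 5 shared DRACH sites and 5 further sites, all of them DRACH. In Nrg1 a stretch of 4322 nt held 4 shared and 3 further sites, also all DRACH. In Erbb4 a stretch of 623 nt held 3 shared sites and 2 further, of which 1 was DRACH. The groups were chosen for their shared DRACH sites, so that only the motif of the further sites was free to vary. The 5 shared sites of the Nrg3 stretch and the 3 of the Erbb4 stretch are shown because they recur in both tissues outside any annotated exon of the gene.
Nrg3 intron 1, chr14:39261450-39261470, minus strand: ttgcctttAAACTctcagcag
Nrg3 intron 1, chr14:39261391-39261411, minus strand: tacaaagaTGACTttaataat
Nrg3 intron 1, chr14:39260856-39260876, minus strand: gaagaaatGGACAattgcctt
Nrg3 intron 1, chr14:39260743-39260763, minus strand: tcaaacctAGACTcttattgg
Nrg3 intron 1, chr14:39260067-39260087, minus strand: tcattgtgAGACTcttcctga
Erbb4 intron 1, chr1:68877695-68877715, minus strand: acattaacGGACTcatcctcc
Erbb4 intron 1, chr1:68877222-68877242, minus strand: tatttataGAACAttacacct
Erbb4 intron 1, chr1:68877073-68877093, minus strand: atcctcacGGACTatggatgg

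Some of the remaining intron sites coincide with transcripts that RefSeq places inside the gene on the same strand. In Nrg3 69 sites lay on exons of Gm31606, 14 of them DRACH and 4 of these in both libraries. In Erbb4 13 lay on exons of Gm51744, and 0 of them were DRACH. Whether these reads came from the host gene or from the inner transcript cannot be told apart from positions. On RefSeq exons of the gene itself lay 2 Nrg2 sites of the cerebellum, outside DRACH, and 1 Nrg1 DRACH site of the cerebrum.

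The bases and the spacing of the intron sites outside DRACH were also described. The trinucleotide ATC, with the listed A at its start, made up 22.1% of the non-DRACH intron sites of the cerebellum list and 13.4% of those of the cerebrum list, against 25% and 16.9% across all genes. In the cerebellum 17 pairs of intron sites were exactly 6 nt apart, 13 of them with ATC at both, and 0 were 5 or 7 nt apart. In the cerebrum there were 26 pairs at 6 nt, 13 of them with ATC at both, 2 at 5 nt and 0 at 7 nt. Such pairs were not counted over all genes, so the spacing is not known to be particular to the family. Some pairs with ATC at both lay in repeat-masked sequence. Pairs of this kind from Nrg3 introns are shown with both ATC in capitals.
Nrg3 intron pair 1, chr14:38971585-38971609, minus strand: tctctctctATCtctATCtctccat
Nrg3 intron pair 2, chr14:39050387-39050411, minus strand: tcatgctccATCtctATCacagctt
Nrg3 intron pair 3, chr14:39094117-39094141, minus strand: aatttctccATCcttATCtccctat

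Genes that act with the family were listed by role. Among 79 such genes 69 had a site in the cerebellum and 72 in the cerebrum, beside the 41.2% and 57.4% of coding genes given above. A DRACH site on coding transcripts was present in 66 and 67, beside 33.2% and 42.7%. In 61 genes the cerebrum list held more of these DRACH sites and in 4 the cerebellum list, a split not counted over all coding genes. The medians per gene, genes without such a site included, were 9 in the cerebrum and 4 in the cerebellum. Coding genes with at least 1 such site had medians of 5 and 3. All exon DRACH sites of the libraries gave a cerebrum to cerebellum ratio of 1.73. The other ligands were mixed. Cspg5, neuroglycan C with an EGF-like domain, had 12 DRACH sites on its coding transcripts in the cerebellum and 15 in the cerebrum. Tmeff1 and Tmeff2, membrane proteins with an EGF-like module, had 7 and 7 and 5 and 3. Tgfa, a ligand of EGFR, had 3 and 13, and Hbegf, which binds EGFR and ErbB4, had 1 and 4. Ereg and Epgn had 0 with 1 site outside this class in the cerebrum, and Egf, Areg and Btc had 0 sites of any kind.

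All 7 proteases had a site in both libraries. Bace1, a protease that cleaves neuregulin precursors, had 10 and 17 DRACH sites on coding transcripts, and Adam17, a sheddase, had 2 and 10. Of 12 regulators 11 had a site, led by Lrig2 with 16 and 30, while its relative Lrig3 had 0. Rnf41, the ubiquitin ligase that controls ErbB3 levels, had 3 and 7. Of 14 adaptors and scaffolds 13 had one, with 23 and 28 in Crk, 22 and 26 in Crkl and 15 and 26 in Erbin, a partner of ErbB2. Shc1 had 0, while Grb2, which couples the receptors to Ras, had 5 and 8. Kinases and effectors had a site in 30 and 31 of 32 genes, with 20 and 36 in Abl1, 23 and 27 in Pik3r1 and 17 and 29 in Prkca, and Stat5a had 0. Of the 4 transcription factors Egr1 had 0, while Jun had 6 and 13 and Myc 5 and 14. Abl1, Crk, Pik3r1 and Crkl had the most sites over both libraries, and Lrig2 and Prkca followed with equal sums of 46. By the same count Nrg3 had 7 and 16 and Erbb4 7 and 15.

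The likeness of Nrg3 and Erbb4 to other genes was measured as the Euclidean distance between log2(count + 1) values of DRACH sites on coding transcripts found only in the cerebellum, only in the cerebrum and in both. For Nrg3, with 0, 9 and 7, Scrn1 and Trove2 had identical counts and Fut11 followed at a distance of 0.138. For Erbb4, with 1, 9 and 6, 5 of 9688 genes had identical counts, among them Arrdc3, Fbxo28 and Gpr12. The measure rests on 3 counts from 2 libraries and describes no more than them.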

How the data were processed

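GLORI data of 1 cerebellum and 1 cerebrum sample were analysed. The authors mapped reads to mm10 and to a PWK version of it, ran GLORI-tools on each alignment, merged the calls and filtered them on methylation (over 0.1) and reads (over 8). The deposited lists hold genomic positions, their unit, and no rate or count. The group of each list was taken from the tissue label of its sample. All 79355 and 188295 lines were checked to be single bases with a matching identifier.

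Bases were read from GRCm38 and gene models from GENCODE M21, an annotation other than that of the authors. An exon site was assigned to the longest isoform covering it, provided its CDS and 2 UTRs are annotated in full, then to other exons, then to introns. The main isoform of a gene was the longest such one. Placement was tested on simulated data, where region, exon, stop distance and 5-mer were recovered for 100.0% of 2000 positions placed on transcripts. The check used the same gene models and covered coordinates only. It did not cover the choice of isoform or between exon and intron. Shares have Clopper-Pearson 95% intervals. The members, gene lists, windows and named sites were chosen with earlier results of these data known. The sites named were those of the members found in both libraries, near the stop codon, in coding exons or without A in the reference, and for the pathway the 5 genes with most DRACH sites, those with none and the other ligands, and a few of the named items are not reported here. The intron groups, the stop codon comparison, the 6 nt spacing and other member sites were chosen after their values were seen. No test between tissues was possible with 1 library each.

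Computations used Python 3.11.15, pandas 2.3.3, numpy 2.4.6, scipy 1.17.1, pysam 0.24.0 and samtools 1.23.1, and figures matplotlib 3.10.9.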

Additional observations from a re-analysis of the deposited data

Results flagged for a closer look

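Sites were also present outside the interval and strand that define the members. Between the GENCODE end or start of a member and the farther end of its RefSeq gene lay 10 cerebellum and 15 cerebrum sites on the same strand, with 5 found in both, above the 3 that a count of 0 allows. Of the 20 different sites 10 were DRACH, and all lay on RefSeq exons. Nrg3 had 6 and 8 of them, downstream of its GENCODE end, with shared DRACH sites at 819 nt (AGACT) and 1282 nt (GGACT) beyond it. Nrg1 had 2 and 4. Erbb4 had 1 and 3, all upstream of its GENCODE start, with GGACA found in both. Nrg2 had 1 and 0, a TGACT beyond its GENCODE end, so that the gene had a DRACH site only under the RefSeq model.

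On the strand opposite the members lay 8 cerebellum and 15 cerebrum sites, with 7 found in both. All were inside the interval of Nrg4, which had 0 sites on its own strand. Each of the 16 different positions lay in a gene annotated on that opposite strand, 15 of them in Fbxo22. The other 7 members had 0 opposite-strand sites in either library.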

How the results depend on the processing

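Values are given for the cerebellum and then the cerebrum. Of 64 alternative values of 20 results, 40 stayed within the 95% interval of the reported share or within 1.5 times the reported count. The number of family sites depended on which sites count, with 408 and 973 in the whole interval, 46 and 83 on exons and 89 and 177 with DRACH. The share found in the other library rose from 19.4% and 8.12% to 56.1% and 32.4% on coding transcripts and to 59.6% and 29.9% for DRACH sites. The DRACH share, 21.8% and 18.2% over all places, was 67.1% in both libraries for sites found in both, 58.5% and 62.0% on coding transcripts, and 17.6% and 14.9% with RRACH, which drops D = T. Without Nrg3 the CDS share was 23.3% and 38.0% and the 3′ UTR share of the cerebellum 76.7%. On the APPRIS principal isoforms the 5′ UTR share of the cerebrum was 0.0% instead of 2.82%. A window of 400 nt raised the share near the stop codon in the cerebrum to 38.0%. With only GGACH and GAACH the share of motif adenosines listed was 4.11% and 6.96%, against 2.44% and 4.27% for DRACH. The intron share was 70.8% and 71.8% for DRACH sites and, without Nrg3, 83.8% in the cerebellum. The RefSeq gene intervals and the isoforms lacking a 5′ UTR were alternatives added after the data had been seen, and both stayed within those limits. The lists carry no read counts, so that no alternative on coverage could be run, and the part of expression and depth in the number of sites was not tested.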
